A study of Rattus norvegicus with 20 samples.

Results

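Genes of the proximal tubule were followed in hand-dissected cortical collecting ducts of the rat, a downstream segment of the same nephron. The set held 30 gene symbols of standard proximal tubule genes, chosen by name with earlier results of these data known. They matched 31 of the 32545 gene rows in the deposited counts. G6pc, the glucose-6-phosphatase gene, was the 1 symbol with 2 rows. Of the 31 rows, 30 passed the filter on low counts and were tested for the effect of a water load; Slc5a1 was not tested.

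The ducts came from male Sprague-Dawley rats, 5 weeks old, of which each gave 1 library from its collagenase-treated left kidney. All 20 rats, control rats included, carried a minipump under the skin that delivered DDAVP, an agonist of the vasopressin V2 receptor, at 5 ng per hour. Gelled food gave 10 rats 50 mL of water daily, the water load, and the 10 control rats 25 mL. Each arm had 3 rats on day 1, 4 rats on day 2 and 3 rats on day 4, a design for studying escape from vasopressin. No rat went without DDAVP, so the drug itself was not compared.

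The proximal tubule is the first segment of the nephron after the glomerulus. Its cells recover filtered glucose, phosphate, amino acids, bicarbonate and proteins through a brush border, secrete organic anions and cations into the urine, and make glucose from lactate and amino acids. The cortical collecting duct, made of principal and intercalated cells, expresses few of these transporters, and in the rat cortex proximal tubules lie all around it. In a bulk library, fewer cells of a type and less RNA per cell cannot be told apart, so a level here is a level of the whole dissected piece.

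The duct itself was present in every library. Summed over 10 principal cell markers, the level ran from 14508 to 71210 normalised CPM (reads of a gene set against the gene reads of its library, with TMM scaling), and over 10 intercalated cell markers from 9139 to 16883. Aqp2, the vasopressin-regulated water channel, stood between 9242 and 55370 CPM, while the principal cell factor Elf5 was at or under 0.871 CPM throughout. Reads on genes came to between 33.5 M and 74.9 M per library, so that 1 count was worth 0.0138 to 0.0309 CPM. Levels under about 0.1 CPM therefore rest on a handful of reads. The cDNA was amplified and carried no molecular identifiers, so intervals and floors cover counting error only.

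Promoter sequences are shown for 4 members from different roles (phosphate and organic anion transport, inositol breakdown and gluconeogenesis), each highest in the second water-loaded library of day 1 and each with an HNF1 motif in its window, since proximal tubule genes are known targets of the factors HNF1 and HNF4. Each runs from 250 bases before to 50 bases after the RefSeq gene start in build GRCr8 and is written in the direction of the gene. Capitals mark a half-site of HNF1 (GTTAAT), a core of HNF4 (AAAGTCC) or a TATA box (TATAAA), on either strand. Slc34a1 encodes the sodium-phosphate cotransporter NaPi-IIa and lies on the minus strand, with the window at chr17:9238934-9239233. Miox encodes myo-inositol oxygenase, which begins the renal breakdown of inositol, with its window on the plus strand at chr7:122284410-122284709. Slc22a8 encodes the organic anion transporter OAT3 (plus strand, chr1:214927034-214927333), and Pck1 encodes the cytosolic phosphoenolpyruvate carboxykinase of gluconeogenesis (plus strand, chr3:182348322-182348621).
Slc34a1: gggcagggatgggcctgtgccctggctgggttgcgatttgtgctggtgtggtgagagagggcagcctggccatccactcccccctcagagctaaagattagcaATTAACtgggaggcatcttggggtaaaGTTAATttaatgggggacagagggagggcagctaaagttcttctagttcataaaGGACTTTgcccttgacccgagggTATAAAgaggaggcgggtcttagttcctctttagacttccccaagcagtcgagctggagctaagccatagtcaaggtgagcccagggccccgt
Miox: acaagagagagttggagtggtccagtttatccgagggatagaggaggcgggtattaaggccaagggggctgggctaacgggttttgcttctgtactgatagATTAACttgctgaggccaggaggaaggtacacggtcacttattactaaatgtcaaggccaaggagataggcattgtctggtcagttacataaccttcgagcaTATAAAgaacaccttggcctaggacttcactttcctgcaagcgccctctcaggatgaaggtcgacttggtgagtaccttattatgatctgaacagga
Slc22a8: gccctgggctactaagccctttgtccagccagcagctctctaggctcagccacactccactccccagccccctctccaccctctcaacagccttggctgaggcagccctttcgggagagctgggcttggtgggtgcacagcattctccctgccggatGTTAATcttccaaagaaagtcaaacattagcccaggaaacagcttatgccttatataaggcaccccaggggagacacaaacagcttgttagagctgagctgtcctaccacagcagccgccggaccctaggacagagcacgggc
Pck1: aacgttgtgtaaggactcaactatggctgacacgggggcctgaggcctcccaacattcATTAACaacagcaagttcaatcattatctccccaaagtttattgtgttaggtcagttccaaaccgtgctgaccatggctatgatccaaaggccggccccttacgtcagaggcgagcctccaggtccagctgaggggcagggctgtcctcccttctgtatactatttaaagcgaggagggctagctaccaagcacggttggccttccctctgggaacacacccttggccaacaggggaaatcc

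In the Slc34a1 window the HNF1 half-site began at -147 on the minus strand and again at -120 on the plus strand of the gene, followed by an HNF4 core at -66 and a TATA box at -43. Miox held 1 HNF1 half-site at -149 and a TATA box at -47. Slc22a8 had 1 HNF1 half-site at -93, and Pck1 had 1 at -192. RefSeq held 30 promoters for 29 of the 30 symbols. The HNF1 half-site was found in 8 of these 30 (26.7%), against 7.45% of the 33469 promoters of the same length. The HNF4 core stood in 4 (13.3% against 4.63%) and the TATA box in 8 (26.7% against 14.2%). The 3 motifs share no letters in the windows shown, and a match is a description of the letters, not of a bound factor.

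Across the 20 libraries the members did not form an even background. The second water-loaded library of day 1 (day 1 water-loaded 2) and the first control library of day 2 (day 2 control 1) stood above all the rest. Reads on the 31 member rows made up 0.645% of all gene reads in day 1 water-loaded 2 (95% Wilson interval 0.643 to 0.648%) and 0.341% in day 2 control 1 (0.34 to 0.342%). In the other 18 libraries the share ran from 0.0317% to 0.0756% with a median of 0.0414%. The next highest were day 4 water-loaded 1 at 0.0756% and day 1 control 1 at 0.0685%. These shares use total gene reads and no TMM factor. The background share is not all from rows that rise in the 2 libraries. In day 4 control 3, with the lowest share, G6pc (ENSRNOG00000051344), Anpep and Mme held 6572, 2110 and 1837 of 14771 member reads. The 20 rows with a median under 1 CPM in the 18 held 0.109% in day 1 water-loaded 2 and 0.0409% in day 2 control 1. Their median in the 18 was 0.002% (7.82e-05 to 0.0107%), low by the way they were chosen. The 2 highest libraries belong to opposite treatments and different days.

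**Figure D1:**
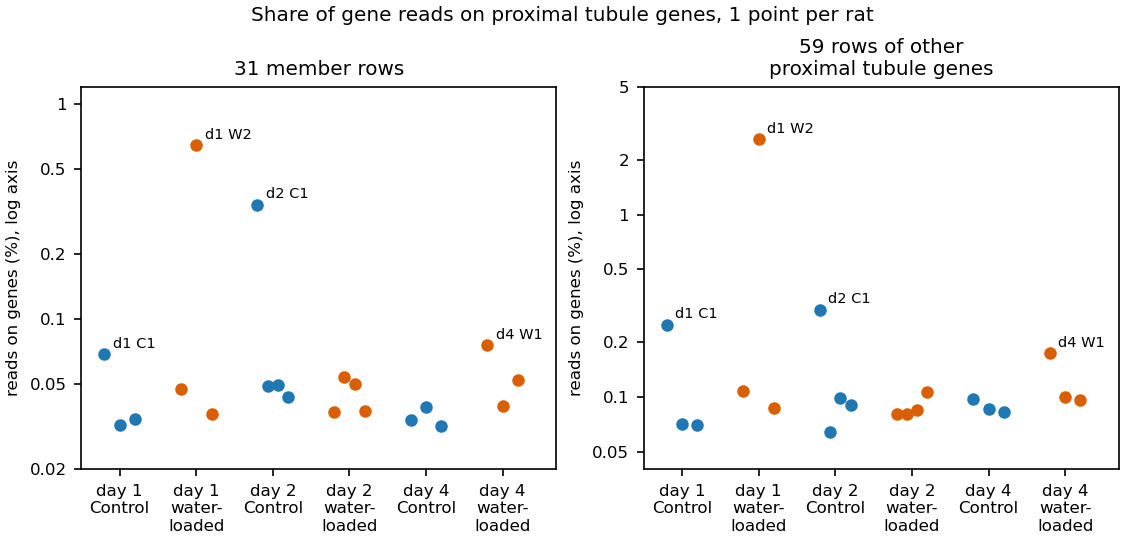
Percent of gene reads on the 31 member rows (left) and on 59 rows of other proximal tubule genes (right), on log axes, 1 point per rat in each of the 6 groups. For the members, day 1 water-loaded 2 (0.645%) and day 2 control 1 (0.341%) stand above the other 18 rats, which end at 0.0756%.

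Of the 31 rows, 24 had their highest level in day 1 water-loaded 2 (77.4%), 3 in day 2 control 1, 1 in day 1 control 1 and 3 in another library. Of all 14472 genes tested, 14.1% were highest in day 1 water-loaded 2 and 4.83% in day 2 control 1. Both libraries exceeded each of the other 18 in 16 of the 31 rows (51.6%), which was so for 1.48% of all genes tested. These 2 libraries were singled out with their values known, so these shares are descriptions. The ranks also rest on TMM scaling, whose factors of 0.686 in day 1 water-loaded 2 and 0.645 in day 1 control 1 raise every CPM there. By the authors' deposited FPKM values, Aqp1 was highest in day 2 control 1 and Slc4a4 in day 1 water-loaded 3. G6pc (ENSRNOG00000051344) was by FPKM highest in day 4 water-loaded 3.

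**Figure D2:**
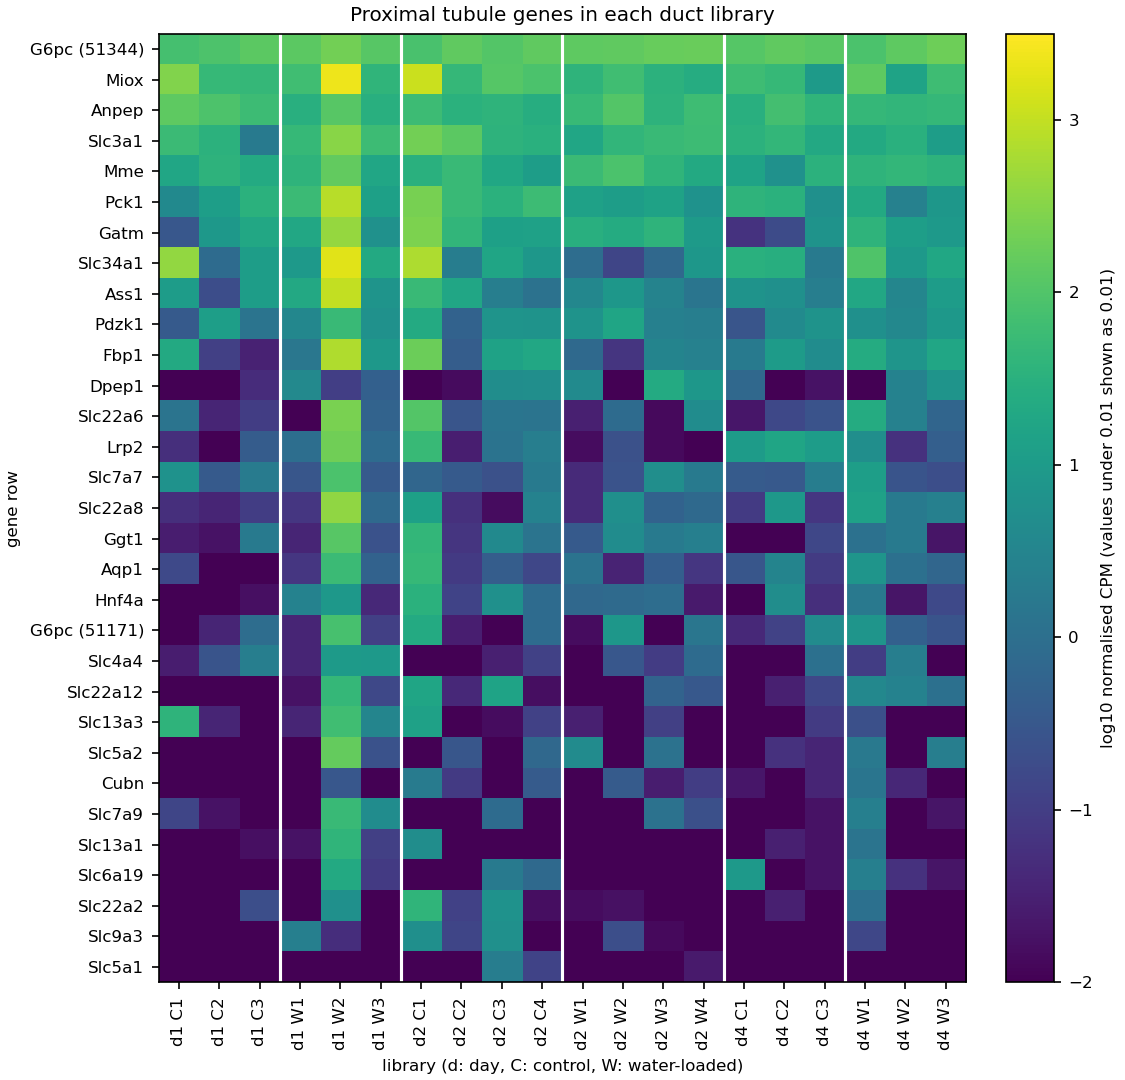
Log10 normalised CPM of the 31 member rows (ordered by their median in the 18 libraries other than day 1 water-loaded 2 and day 2 control 1) in each of the 20 libraries. Those 2 columns are bright through most rows, whereas G6pc (ENSRNOG00000051344), Anpep, Mme and Slc3a1 at the top are visible in every column.

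The endocytic receptors megalin (Lrp2) and cubilin (Cubn) take up filtered proteins at the brush border. Lrp2 stood at 0.0553, 0 and 0.394 CPM in day 1 control rats and at 0.956, 201 and 0.828 in day 1 water-loaded rats. At day 2 it stood at 50.5, 0.0285, 1.25 and 2.29 CPM in control rats and at 0.0154, 0.226, 0.0138 and 0 in water-loaded rats. At day 4 the values were 10.5, 16.7 and 11.2 in control rats and 5.28, 0.0605 and 0.453 in water-loaded rats. Lrp2 was thus highest in the same 2 libraries as the share, but all 3 day 4 control ducts also carried it above 10 CPM, more than any other library outside those 2. Cubn was nearly absent: it was at 0 counts in 9 libraries and reached 1.98 CPM in day 2 control 1, 1.38 in day 4 water-loaded 1 and 0.318 in day 1 water-loaded 2. The receptor pair therefore did not keep 1 ratio, with 201 CPM of Lrp2 beside 0.318 of Cubn in day 1 water-loaded 2 and 50.5 beside 1.98 in day 2 control 1.

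Aqp1, the constitutive water channel of the proximal tubule and thin descending limb, is also made by some endothelial cells. Its level was 56.3 CPM in day 1 water-loaded 2 and 48.4 in day 2 control 1. In the other 18 libraries it ran from 0 to 7.47 CPM with a median of 0.233, and the highest of these were day 4 water-loaded 1 at 7.47 and day 4 control 2 at 3.05. The 2 libraries were nearly level in Aqp1, unlike in most other members. By FPKM their order was the other way, with 21 in day 1 water-loaded 2 and 26.6 in day 2 control 1.

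Slc34a1 exceeded 3 counts in all 20 libraries, as did Slc3a1 among the other transporters. It stood at 406, 0.824 and 11.4 CPM in day 1 control rats and at 9.47, 1765 and 21.5 in water-loaded rats. At day 2 it stood at 658, 2.19, 17.3 and 8.19 CPM in control rats and at 0.923, 0.139, 0.718 and 8.12 in water-loaded rats. At day 4 it stood at 31.6, 28.1 and 1.84 CPM in control rats and at 97.3, 8.96 and 19.3 in water-loaded rats. Besides the 2 highest libraries, day 1 control 1 at 406 CPM and day 4 water-loaded 1 at 97.3 stood out. Both arms overlapped at every day.

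The sodium-glucose cotransporters behaved otherwise. SGLT2 (Slc5a2), the high-capacity carrier of the early proximal tubule, reached 157 CPM in day 1 water-loaded 2 and was at 0 counts in day 2 control 1. Its next values were 4.42 CPM in day 2 water-loaded 1, 2.28 in day 4 water-loaded 3 and 1.67 in day 4 water-loaded 1, and it was at 0 counts in 10 libraries. SGLT1 (Slc5a1), the carrier of the late proximal tubule, was seen in 3 libraries only, at 2.11 CPM in day 2 control 3, 0.13 in day 2 control 4 and 0.0248 in day 2 water-loaded 4. It was at 0 counts in both of the libraries highest in the members.

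The organic ion transporters of the basolateral and apical membranes move drugs and metabolites into the urine, or recover urate. OAT1 (Slc22a6) stood at 247 CPM in day 1 water-loaded 2, 109 in day 2 control 1 and 24.5 in day 4 water-loaded 1, and the other 17 libraries were at or under 4.73. OAT3 (Slc22a8) reached 394 CPM in day 1 water-loaded 2, but 13.6 in day 2 control 1, below the 14.2 of day 4 water-loaded 1. The urate transporter URAT1 (Slc22a12) stood at 46.8 CPM in day 1 water-loaded 2, at 17 in day 2 control 1 and at 15.4 in day 2 control 3. The organic cation transporter OCT2 (Slc22a2) had the reverse order, with 39.6 CPM in day 2 control 1, 6.37 in day 2 control 3 and 5.66 in day 1 water-loaded 2. All 4 genes had a median at or under 0.426 CPM in the other 18 libraries.

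The sulfate cotransporter Slc13a1 was at 39.2 CPM in day 1 water-loaded 2, at 4.91 in day 2 control 1 and at or under 1.3 elsewhere. The dicarboxylate cotransporter NaDC3 (Slc13a3) stood at 66 CPM in day 1 water-loaded 2 and at 37 in day 1 control 1, above the 14.3 of day 2 control 1. Among amino acid transporters, 3 were high in day 1 water-loaded 2 but not in day 2 control 1. The light chain Slc7a7 stood at 85.9 CPM there, the cystine transporter subunit Slc7a9 at 52.8 and the neutral amino acid transporter B0AT1 (Slc6a19) at 21.5. In day 2 control 1 they were at 0.67, 0 and 0 CPM. Slc3a1, the heavy chain that pairs with Slc7a9, differed from its partner: it exceeded 3 counts in every library, at 340 CPM in day 1 water-loaded 2, 218 in day 2 control 1 and 1.81 to 133 in the other 18.

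The transporters of acid and base did not follow the 2 libraries. NHE3 (Slc9a3), the apical sodium-proton exchanger, was highest in day 2 control 3 at 5.72 CPM and day 2 control 1 at 5.58, and stood at 0.0529 in day 1 water-loaded 2. The bicarbonate cotransporter Slc4a4 stood at 10 CPM in day 1 water-loaded 2 and 8.96 in day 1 water-loaded 3, and at 0 counts in day 2 control 1.

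Enzymes of gluconeogenesis were among the strongest members. Pck1 stood at 4.01, 12.3 and 32.8 CPM in day 1 control rats and at 55.7, 805 and 13.1 in water-loaded rats. At day 2 it stood at 236, 52.5, 32.8 and 57.6 CPM in control rats and at 14, 11.4, 14.4 and 6.27 in water-loaded rats. At day 4 it stood at 38.4, 33 and 5.83 CPM in control rats and at 22.1, 2.64 and 8.17 in water-loaded rats. At day 2 all 4 control ducts lay above all 4 water-loaded ducts, also apart from day 2 control 1. Fructose-1,6-bisphosphatase (Fbp1) stood at 697 CPM in day 1 water-loaded 2 and 183 in day 2 control 1, against 0.0329 to 23.8 in the others. The 2 rows of G6pc differed: ENSRNOG00000051171 reached 81.2 and 23.1 CPM in these 2 libraries and at most 8 elsewhere, whereas ENSRNOG00000051344 lay between 74.4 and 212 CPM in all 20. Rows that share a symbol may share reads, so neither level of G6pc is certain.

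Miox had the highest level of all member rows in both libraries. It stood at 291, 49.1 and 45.1 CPM in day 1 control rats and at 65.9, 2273 and 39.8 in water-loaded rats. At day 2 it stood at 1166, 46.5, 112 and 86.8 CPM in control rats and at 38.4, 64.7, 35 and 26 in water-loaded rats. At day 4 it stood at 62.8, 47.9 and 9.85 CPM in control rats and at 136, 15.7 and 61.8 in water-loaded rats. Every duct thus carried Miox, and the same 4 libraries led as for Slc34a1. Per length, in the authors' deposited FPKM values, Miox was also first in day 1 water-loaded 2 (583 FPKM), followed by Slc34a1 (482), Ass1 (436), Fbp1 (332) and Pck1 (211). In day 2 control 1 the first 3 per length were Miox (441 FPKM), Slc34a1 (265) and Fbp1 (128).

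Glycine amidinotransferase (Gatm), the first enzyme of creatine synthesis, stood at 0.304, 8.39 and 20 CPM in day 1 control rats and at 19.7, 420 and 6.1 in water-loaded rats. At day 2 it stood at 260, 41.5, 13.4 and 13.8 CPM in control rats and at 29.8, 24.8, 38.7 and 9.95 in water-loaded rats. At day 4 it stood at 0.0642, 0.185 and 6.82 CPM in control rats and at 37.4, 12.4 and 9.16 in water-loaded rats. Gatm was below 1 CPM in 3 libraries, all from control rats, and above 6 CPM in the other 17. Argininosuccinate synthase (Ass1), which serves renal arginine synthesis, stood at 985 CPM in day 1 water-loaded 2, 53.7 in day 2 control 1 and 0.202 to 21.3 in the other 18. The distance between the 2 libraries was thus wide for Ass1, 18.4-fold, and narrow for Gatm, 1.62-fold. These folds of CPM include the TMM factors, 0.686 in day 1 water-loaded 2 and 1.01 in day 2 control 1. By FPKM, Ass1 stood at 436 and 35 and Gatm at 114 and 104 in the same order.

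Hnf4a, the nuclear receptor that maintains proximal tubule identity, was higher in day 2 control 1 (32.8 CPM) than in day 1 water-loaded 2 (8.6), with 5.66 in day 2 control 3, 5 in day 4 control 2 and 2.79 in day 1 water-loaded 1. The remaining 15 libraries were at or under 1.67 CPM. The scaffold Pdzk1 stood at 54.2 CPM in day 1 water-loaded 2, 23 in day 2 control 1 and 0.278 to 16.7 in the others. Of the brush border peptidases, gamma-glutamyltransferase (Ggt1) was at 118 and 42.9 CPM in the 2 libraries and at most 4.79 elsewhere. Neprilysin (Mme) and aminopeptidase N (Anpep) were present in every library, from 5.96 to 153 CPM and from 26.4 to 135 CPM. By CPM, Anpep was highest in day 1 control 1, whose TMM factor was 0.645. By FPKM it was highest in day 2 water-loaded 2, at 30.7 against 24.6 in day 1 control 1. Dipeptidase 1 (Dpep1) was highest in day 2 water-loaded 3 at 22.6 CPM, with 0.106 in day 1 water-loaded 2 and 0 counts in day 2 control 1.

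The members thus fell into rows that every duct carried and rows close to absent outside a few libraries. Above 3 counts in all 20 libraries were 9 rows: Slc34a1, Slc3a1, Pck1, G6pc (ENSRNOG00000051344), Miox, Pdzk1, Anpep, Mme and Ass1. In the 18 libraries other than the 2 highest, 20 rows had a median under 1 CPM and 11 a median of at least 1 CPM, and 18 rows were at 0 counts in at least 1 of the 20 libraries. For Anpep, Mme and G6pc (ENSRNOG00000051344), the level in day 2 control 1 lay within the range of the other 18. The list was therefore not uniform as a measure of proximal tubule in the duct: Slc5a1, Slc9a3, Dpep1 and Anpep did not exceed the other 18 libraries in either of the 2.

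**Figure D3:**
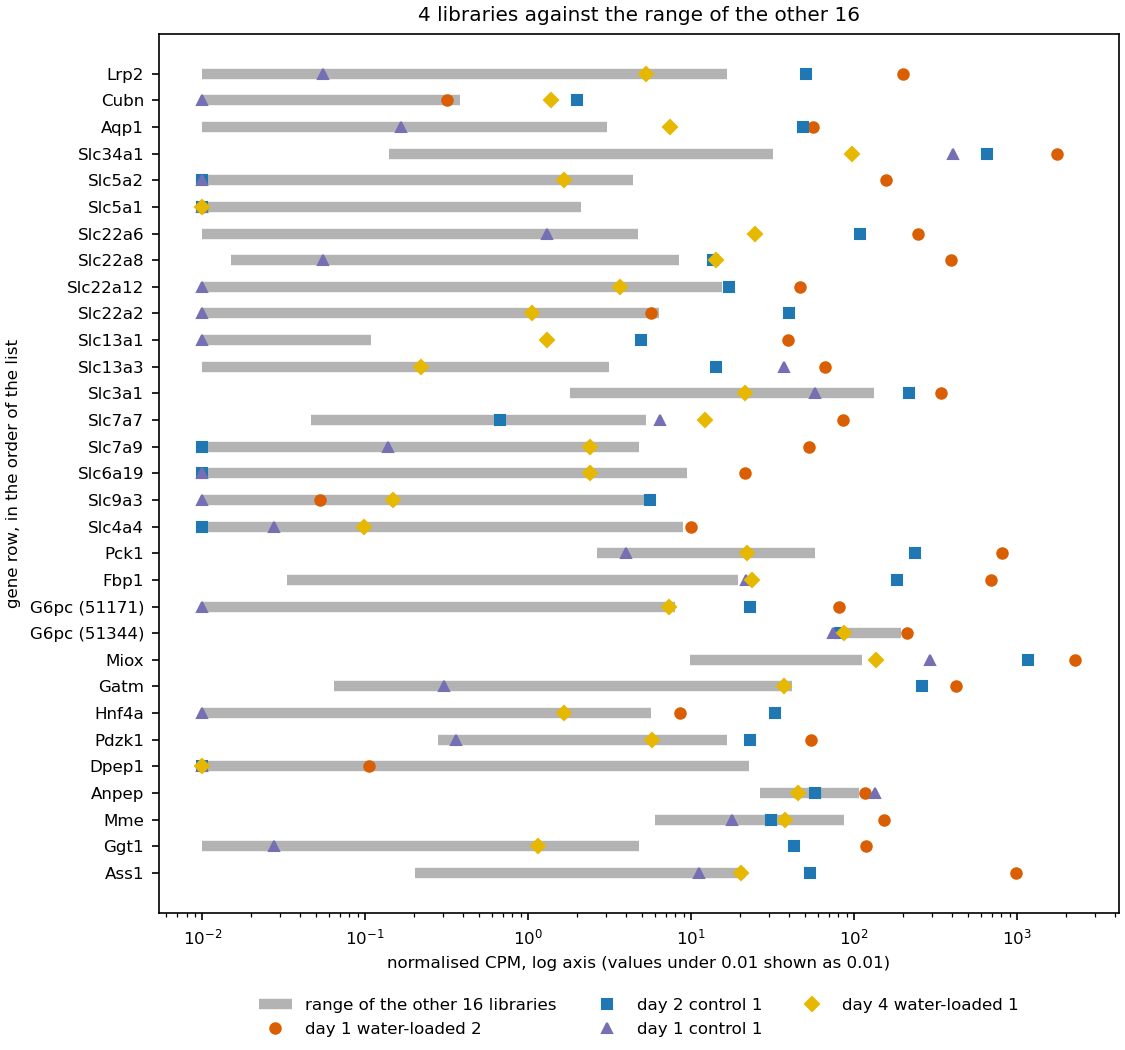
Normalised CPM (log axis) of each member row in day 1 water-loaded 2, day 2 control 1, day 1 control 1 and day 4 water-loaded 1, with grey bars for the range of the other 16 libraries. Slc34a1 and Miox lie above the bar in all 4 libraries, while Slc5a2, Slc7a9 and Slc6a19 do so in day 1 water-loaded 2 alone.

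The profile differed between the libraries, not only the height. Set against Slc34a1 in the same library as a ratio of CPM, Miox was 129% in day 1 water-loaded 2, 177% in day 2 control 1 and 71.5% in day 1 control 1. Pck1 was 45.6%, 35.9% and 0.986% in the same order, and Lrp2 was 11.4%, 7.68% and 0.0136%. Slc22a8 was 22.3% in day 1 water-loaded 2 and 2.07% in day 2 control 1, and Ass1 was 55.8%, 8.15% and 2.75%. Day 1 control 1 thus carried Slc34a1, Miox and Slc13a3 with next to no Lrp2. With 1 library of each kind, these ratios have no replicate.

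Markers of the early and of the late proximal tubule segment, 6 of each, were read to see which stretch of the tubule was represented. Summed over the early list (Slc5a2, Slc34a1, Slc6a19, Slc22a12, Slc5a12 and the glucose transporter Slc2a2), the level was 2027 CPM in day 1 water-loaded 2, 676 in day 2 control 1 and 406 in day 1 control 1, with a median of 10.7 in the 18 libraries other than the first 2. In day 1 water-loaded 2 and day 2 control 1, most of that sum was Slc34a1. In day 1 control 1 it was Slc34a1 alone, with every other early marker at 0 CPM. Slc5a2, Slc6a19 and Slc2a2 were at 0 CPM in day 2 control 1 as well. The lactate transporter Slc5a12 stood at 37.7 CPM in day 1 water-loaded 2 and at or under 0.565 elsewhere, and Slc2a2 was above 0 only in day 2 control 3 at 2.39. Summed over the late list (Slc5a1, Slc22a7, Slc7a13, Slc6a18, Slc5a10 and Slc22a13), day 1 control 1 was highest at 227 CPM, followed by day 1 water-loaded 2 at 87.3 and day 2 control 1 at 62.6, against a median of 3.2. Slc5a10, a sodium-dependent mannose and fructose transporter, made up 171 CPM in day 1 control 1 and 0.0529 in day 1 water-loaded 2. The amino acid transporter Slc6a18 was at 55.7, 55.3 and 54.9 CPM in day 1 control 1, day 1 water-loaded 2 and day 2 control 1, and Slc7a13 at 0.0276, 31.9 and 4.07. Slc22a7 was at 0 counts in every library.

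A further 60 proximal tubule genes, drawn up from textbook knowledge and not among the members, matched 59 rows, of which 48 were tested. This list too was drawn up with earlier results of these data known, so it is no independent support. Their share of gene reads was 2.6% in day 1 water-loaded 2, 0.301% in day 2 control 1 and 0.249% in day 1 control 1, with a median of 0.0889% in the 18 libraries other than the first 2. In day 1 water-loaded 2 most of that share was Gpx3, the secreted glutathione peroxidase made by the proximal tubule, at 30229 CPM, above the 18334 CPM of Aqp2 in the same library. Gpx3 stood at 1732 CPM in day 1 control 1, 714 in day 2 control 1 and 84.6 at the median of the 18. The peroxisomal oxidase Hao2 was at 1309, 381 and 159 CPM in day 1 water-loaded 2, day 2 control 1 and day 1 control 1. The folate receptor Folr1 (56.3 to 959 CPM) and the scaffold NHERF1 (Slc9a3r1, 95.1 to 730 CPM) were present in every duct. Of the 48 rows, 29 were highest in day 1 water-loaded 2 (60.4%) and 17 were above all other 18 libraries in both (35.4%).

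Markers of other cell types were not level in these libraries either. The summed level of 6 distal convoluted tubule markers was 12998 CPM in day 1 water-loaded 2, of which Calb1, which the connecting tubule also makes, gave 12934. It was 750 in day 2 control 1 and 95.1 to 6418 in the other 18 libraries. In day 1 water-loaded 2 the calcium channel Trpv5 stood at 57.5 CPM, above the 17 CPM that was the most in the other 18. The sodium chloride cotransporter Slc12a3 stood at 6.06 CPM, within their range, and Trpm6, Klhl3 and Pvalb at 0.0265, 0.0265 and 0 CPM. The 7 markers of the thick ascending limb summed to 759 CPM in day 1 water-loaded 2 and 1077 in day 2 control 1, against 347 to 1311. Day 1 control 1 had 3673 CPM of 9 fibroblast and smooth muscle markers, against a median of 58.3, and 1031 CPM of endothelial markers, against 257. The injury list summed to 589 CPM in day 1 water-loaded 2, inside the range of the others (47.9 to 1110), of which Spp1 gave 543. Sox9 of that list stood at 45.1 CPM there, above the 20.6 CPM that was the most in the other 18, and Havcr1 (KIM-1) was at 0 counts in every library but day 2 control 3. The part of these cell types in the members' levels was not tested.

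The effect of the water load on the members was then read from 1 edgeR quasi-likelihood fit over all 20 libraries and 14472 genes, with Benjamini-Hochberg adjustment and a threshold of 0.05. No member was called at day 1, day 2 or day 4, nor over the average of the 3 days, nor for a difference of the effect between days or for a change over days among control rats. Over all genes, 0% were called at each single day, 0.159% over the average (23 genes), 0% for the difference between days and 2.45% over days in control rats (355 genes). In a fit blocked on replicate number the average gave 5 genes and still no member. DESeq2, run as an alternative, called 1126 of the 14472 genes on day 1. Among them were 3 of the 30 member rows tested (Hnf4a, Slc22a12 and Pck1), a share near that over all genes. Slc22a12 had 0 counts in the day 1 control ducts and 1, 1767 and 7 reads in the water-loaded ducts, so its call there rests mainly on 1 library. On day 2 DESeq2 called 77 genes, of which Slc22a2 was a member, and on day 4 319 genes with 0 members. For the average it called 708 genes with Slc22a12, an average that includes the same day 1 groups. These p-values set a difference against the spread between rats within groups, estimated over all groups together, and each group held only 3 or 4.

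At day 1, 29 of the 30 tested rows had a higher fitted level in water-loaded ducts (47.5% of all genes did), with a median log2 difference of 5.48 against 0 over all genes. With 5 rows whose group was at 0 counts set to their bounds, the median was 4.84. An unadjusted p under 0.05 was reached by 17 rows, all higher, against a background of 15.6% of genes in either direction and 8.6% higher. Without day 1 water-loaded 2 and day 2 control 1, 18 of 29 tested rows were higher and 10 lower, the median was 0.43, and 4 rows had an unadjusted p under 0.05 where 12.3% of all genes did. Without day 1 water-loaded 2 alone the median was 0.6.

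The members that the fit ranked first at day 1 were Pck1, with a log2 difference of 4.15 (SE 1.26, edgeR adjusted p = 0.225), Slc22a8 with 10.95 (SE 3.35, adjusted p = 0.225) and Slc22a12 with 12.70 (SE 3.95, adjusted p = 0.225). Slc22a12 was at 0 counts in all 3 control ducts, so that its mean was at least 251-fold higher against a floor of 3 counts per library, and that of Slc5a2, likewise at 0 in control ducts, at least 839-fold. Both bounds rest on day 1 water-loaded 2: in the other 2 water-loaded ducts the means were 0.0855 ± 0.0949 CPM for Slc22a12 and 0.12 ± 0.17 CPM for Slc5a2 (SD, n = 2), near the floor of 0.0624 CPM. Lrp2 differed by 8.77 (SE 2.84, adjusted p = 0.226) and Aqp1 by 8.46 (SE 3.14, adjusted p = 0.247). Ass1 differed by 5.46 (SE 1.75), Gatm by 3.96 (SE 1.73) and Slc34a1 by 2.10 (SE 2.10), with edgeR adjusted p-values of 0.225, 0.291 and 0.704. Without the 2 libraries Slc34a1 was on the other side, at -3.17 (SE 2.02, adjusted p = 0.543), with 15.5 ± 8.5 CPM (SD, n = 2) in water-loaded ducts and 139 ± 231 (SD, n = 3) in control ducts. In that fit Pck1 differed by 1.07 (SE 0.96), Lrp2 by 2.54 (SE 2.01) and Slc22a8 by 2.67 (SE 2.27). Without the 2 libraries the member with the smallest p at day 1 was Anpep, lower by the fit at -1.71 (SE 0.53, adjusted p = 0.329).

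Complete separation of the arms at day 1 was seen for 5 of 30 rows with water-loaded ducts above, namely Dpep1, Hnf4a, Lrp2, Slc13a1 and Slc22a12, against 5.71% of all genes. For 3 of these the lowest water-loaded duct was at the floor: Slc13a1 had 1 read there and 1 read in the highest control duct, Slc22a12 had 1 read against 0, and Hnf4a had 2 reads against 1. The count of 5 is therefore not read as a result. Hnf4a stood at 2.79, 8.6 and 0.0436 CPM in water-loaded ducts and at 0, 0 and 0.0164 in control ducts. Without the 2 libraries its log2 difference was 7.41 (SE 2.97, edgeR adjusted p = 0.382), against 8.82 (SE 3.03, adjusted p = 0.235) with them. The 7.41 rested on 1 rat, day 1 water-loaded 1, with 152 reads, beside 2 reads in day 1 water-loaded 3. Dpep1 stood at 3.84, 0.106 and 0.479 CPM in water-loaded ducts and at 0, 0 and 0.0493 in control ducts, so the high library was not the one that led the other members.

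At day 2 the direction was the opposite: 22 of 30 rows were lower in water-loaded ducts and 8 higher (46.7% of all genes were higher), with a median log2 difference of -2.31 against -0.05. The 11 rows with an unadjusted p under 0.05 were all lower, where 5.23% of genes had one in either direction and 2.47% lower. Without the 2 libraries 15 of 29 rows were higher and 14 lower, with a median of 0.17, and 5 rows had such a p where 5.32% of all genes did. Without day 2 control 1 alone the median was also 0.17, and with replicate number as a block, in all 20 libraries, it was -0.93. The smallest p-values belonged to Lrp2 at -7.67 (SE 2.37, edgeR adjusted p = 0.855), Slc22a2 at -10.06 (SE 3.26, adjusted p = 0.857) and Pck1 at -3.04 (SE 1.04, adjusted p = 0.857).

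These 3 members stayed lower when the 2 libraries were left out, at -4.17 (SE 1.81) for Lrp2, -7.66 (SE 2.84) for Slc22a2 and -2.05 (SE 0.82) for Pck1, each with an edgeR adjusted p of 0.931. For Slc22a2 the difference then rested on 1 rat, day 2 control 3, with 422 reads. The remaining control ducts had 8 and 1 reads, and the water-loaded ducts 1, 1, 0 and 0. Pck1 was the 1 row whose arms did not overlap at day 2, with water-loaded below, against 1.88% of all genes. Slc34a1 differed by -6.13 (SE 2.19, adjusted p = 0.857), and by -1.90 (SE 1.49, adjusted p = 1) without the 2 libraries. Aqp1 turned from -4.76 (SE 2.27, adjusted p = 0.952) to 1.04 (SE 1.82, adjusted p = 1), and Gatm from -1.67 (SE 1.37, adjusted p = 1) to 0.17 (SE 1.25, adjusted p = 1). Ass1 differed by -2.25 (SE 1.31) and Slc5a2 by 2.45 (SE 2.31), both with an edgeR adjusted p of 1.

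At day 4, where neither of the 2 libraries lies, 24 rows were higher and 6 lower in water-loaded ducts (49.1% of all genes were higher), with a median log2 difference of 1.15 against 0. No row had an unadjusted p under 0.05, against 7.22% of all genes. Without day 4 water-loaded 1, the library next in the members' share, the median was -0.01. Slc22a6 differed by 5.97 (SE 2.92, edgeR adjusted p = 0.687), Slc7a9 by 6.45 (SE 3.42, adjusted p = 0.734) and Slc22a12 by 5.31 (SE 2.84, adjusted p = 0.74). Gatm differed by 3.05 (SE 1.67), Slc5a2 by 5.28 (SE 3.13) and Slc34a1 by 1.03 (SE 2.05), with edgeR adjusted p-values of 0.744, 0.791 and 1.

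The arms were apart at day 4 for Slc22a6, Slc22a12, Gatm and Mme with water-loaded ducts above, 4 of 30 rows against 7.93% of all genes. Lrp2 was the 1 row apart with water-loaded ducts below (6.73% of all genes), at -2.73 (SE 2.15, edgeR adjusted p = 0.988). Pck1 stood at -1.23 (SE 1.13), Aqp1 at 1.42 (SE 2.29) and Ass1 at 1.21 (SE 1.47), the adjusted p being 1 for each by edgeR. Lrp2 and Pck1 were therefore lower in water-loaded ducts at day 2 and day 4 by the fit, and higher at day 1, and none of these differences passed.

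Over the average of the days 24 rows were higher and 6 lower (51% of all genes were higher), with a median log2 difference of 1.59 against 0.01. The 7 rows with an unadjusted p under 0.05 were all higher, against 13.5% of all genes in either direction and 7.42% higher. Slc5a2 came first at 7.39 (SE 1.97, edgeR adjusted p = 0.126), then Slc7a9 at 5.23 (SE 1.78, adjusted p = 0.197) and Slc22a12 at 4.27 (SE 1.58, adjusted p = 0.238). These fitted averages include, for Slc5a2 and Slc22a12, a day 1 control group at 0 counts and are no exact folds. Without the 2 libraries they were 4.33 (SE 1.70) for Slc5a2, 4.10 (SE 1.82) for Slc7a9 and 2.00 (SE 1.30) for Slc22a12, with edgeR adjusted p-values of 0.27, 0.331 and 0.579. The median was then 0.57, with 19 rows higher and 10 lower.

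**Figure D4:**
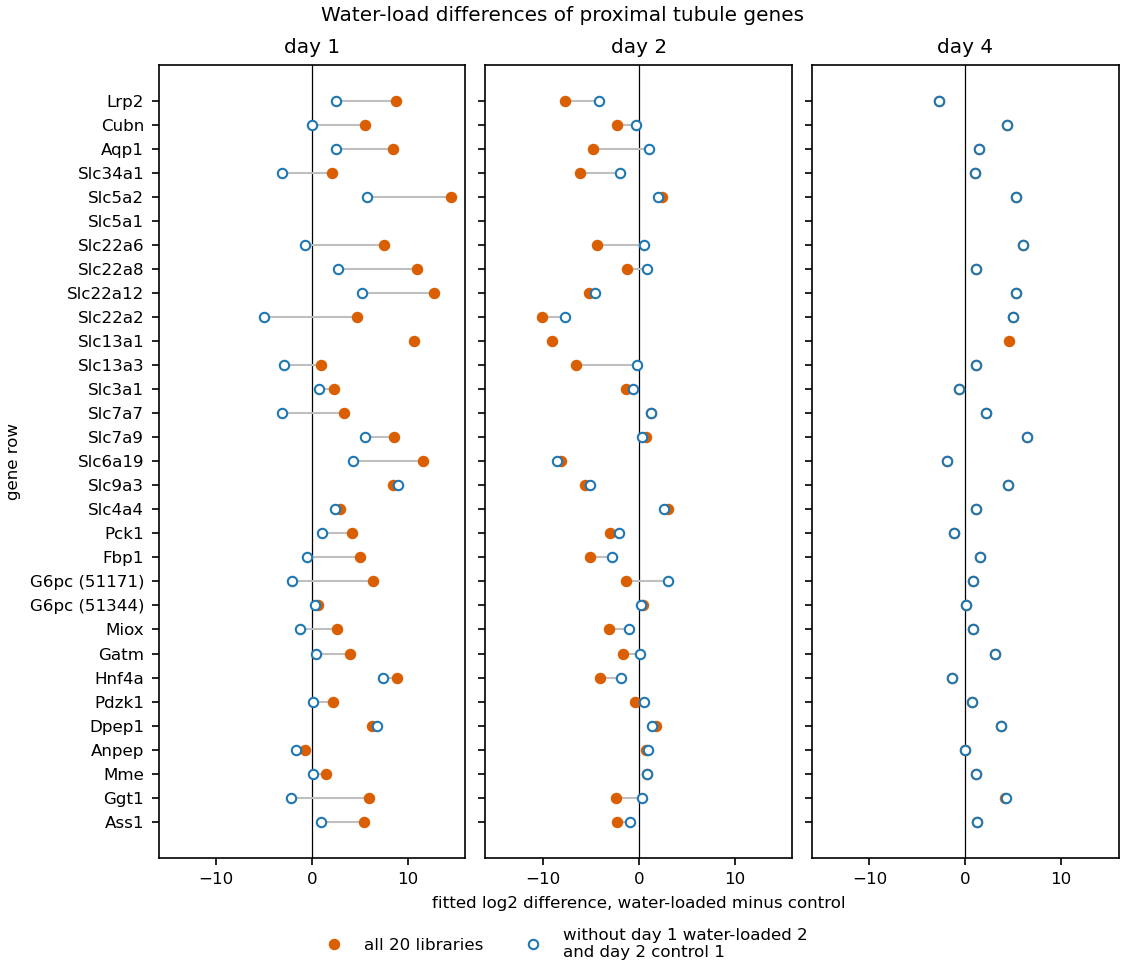
Fitted log2 difference, water-loaded minus control, of each member row at days 1, 2 and 4, with all 20 libraries (filled) and without day 1 water-loaded 2 and day 2 control 1 (open). Filled points lie mostly right of 0 at day 1 (median 5.48) and left of 0 at day 2 (median -2.31), and the open points have medians of 0.43 and 0.17; Slc5a1 has no point, and Slc13a1 no open point.

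Whether the effect differed between days was tested directly. An unadjusted p under 0.05 was reached by 18 of the 30 rows, where 8.56% of all genes had one. Pck1, Lrp2 and Slc22a12 came first, each with an edgeR adjusted p of 0.43. The contrasts at day 1 and day 2 hold 1 of the 2 high libraries each, in opposite arms. Rows that are high in the same library are not independent, so the count of 18 is a description. No such count without the 2 libraries is given. Among control rats alone, 10 rows had an unadjusted p under 0.05 over days, where 22.5% of all genes did, and the smallest adjusted p by edgeR were 0.0928 for Slc22a12, 0.104 for Slc9a3 and 0.126 for Slc22a2.

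The other proximal tubule list gave no call in the water-load contrasts. On day 1 its median log2 difference was 3.29, with 40 of 48 tested rows higher, and on day 2 it was -1.44, with 11 higher. The day 4 median was 2.24 (37 rows higher) and that of the average 1.01 (38 rows higher). Over days among control rats 3 of its rows were called, against 2.45% of all genes. They were Slc9a3r1 (edgeR adjusted p = 0.0341), the angiotensin-converting enzyme Ace (adjusted p = 0.0403) and the fatty acid hydroxylase Cyp4a2 (ENSRNOG00000030154, adjusted p = 0.0417). Ace stood at 118 CPM in day 1 control 1 and at or under 0.366 in the other 19 libraries. Slc9a3r1 ran from 114 to 178 CPM in day 1 control ducts and from 300 to 459 at day 2. The Cyp4a2 row stood at 0.0276, 0.0183 and 0.131 CPM in day 1 control ducts. At day 2 it stood at 154 CPM in day 2 control 1 and at 0.285, 13.3 and 1.7 in the remaining control ducts.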

How the data were processed

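Per the file headers and values, the authors deposited raw HTSeq counts per gene, 1 column per rat, and FPKM values made from them. Per the submitters' processing notes, which give no settings, reads were handled with HTSeq, SAMtools, STAR 2.4.0.1 and Trimmomatic 0.32 on build rn6; annotation and strand use were not given in the sources. Lines naming no gene held 31.45% to 35.61% of counts and were left out. Levels are TMM-normalised CPM. The main test was that of edgeR 4.0.16 under R 4.3.3 (filterByExpr by group, robust quasi-likelihood, 1 mean per group, all 20 libraries, 14472 genes, Benjamini-Hochberg over all of them), checked on simulated counts; DESeq2 1.42.0 was an alternative. FPKM served to compare genes and, where named, to compare libraries beside the CPM.

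All members could be named, with per-library values for 12 chosen genes and tests for 8 of these and for the 3 smallest p-values of a contrast; other genes named, and other members with per-library values, were chosen after their values were seen. Members and lists were chosen with earlier results of these data known. Same-numbered rats correlated at 0.145 to 0.246 in their deviations at day 2, all over the 0.1 set for pairing, but differently numbered rats within 1 and 2 (0.111 and 0.124) and within 3 and 4 (0.232 and 0.182) correlated alike. The numbers thus do not stand apart from a split of libraries 1 and 2 against 3 and 4, and the block is given as an alternative only. Same-numbered rats did not correlate above 0.1 at day 1 (-0.0538 to 0.0661) or day 4 (-0.145 to 0.0149). Promoters come from RefSeq (GRCr8), matched by symbol, G6pc through a synonym; positions of the rn6 genes were not used here.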

Additional observations from a re-analysis of the deposited data

Results flagged for a closer look

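In the groups of 4 rats at day 2, 58 combinations of member and group were examined for a rat far from the other 3, and 20 such values were found. Chance gives about 5% of groups where values are normally distributed. The CPM were not transformed and many lie near 0, so that rate need not hold here. The members of 1 library are also not independent and day 2 control 1 was already known to be high, so the number is a description. Of these, 14 were high values of day 2 control 1: Lrp2 50.5, Aqp1 48.4, Slc34a1 658, Slc22a6 109, Slc22a2 39.6, Slc13a1 4.91 and Slc13a3 14.3 CPM, and Pck1 236, Fbp1 183, G6pc (ENSRNOG00000051171) 23.1, Miox 1166, Gatm 260, Hnf4a 32.8 and Ggt1 42.9 CPM. In day 2 control 3, Slc5a1 at 2.11 and Slc7a9 at 0.846 CPM lay above the other control rats. In day 2 water-loaded 2, Lrp2 at 0.226, Slc22a8 at 5.55 and Slc9a3 at 0.208 CPM lay above the other water-loaded rats, and so did Slc34a1 at 8.12 CPM in day 2 water-loaded 4. Groups of 3 were not examined, so day 1 water-loaded 2 could not be found in this way. No cause was tested.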

How the results depend on the processing

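No member was called by edgeR under any alternative run (DESeq2 size factors, TMM without proximal tubule genes, no filter, a term for day 2 libraries 3 and 4, the replicate block, single libraries or both high ones left out). DESeq2 called 3 members on day 1, 1 on day 2 and 1 for the average, with 1126, 77, 319 and 708 genes in all for day 1, 2, 4 and the average; it was not run for the tests over days. The replicate block left 5 genes for the average and changed no other call. Without both high libraries the members' median was 0.43 on day 1 and 0.17 on day 2, and the difference of Slc34a1 on day 1 (-3.17) and those of Aqp1 (1.04) and Gatm (0.17) on day 2 changed sign; these libraries were left out by construction.

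With 1 library left out at a time, genes called on day 1 ran from 0 to 9 (9 without day 1 control 3) and for the average from 6 to 37 (6 without day 4 control 1, 37 without day 1 control 3); the cause was not tested. The members' median ran from 0.6 to 6.43 on day 1 and from -3.32 to 0.17 on day 2. Slc34a1 ran from -3.17 to 6.61 on day 1 and from -0.5 to 1.51 on day 4, Aqp1 from -6.05 to 1.05 on day 2 and from -0.39 to 3.95 on day 4, and Gatm from -2.04 to 0.17 on day 2. The turns came without day 1 water-loaded 2, day 4 water-loaded 1 or day 2 control 1. Of 810 values of single members under the alternatives, 798 kept their direction and side of the threshold. Most alternatives left out 1 library, often from another day than the contrast, and no member was called in the main fit. That count was therefore largely set in advance and is no measure of stability. Depth limits the 20 rows with medians under 1 CPM.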
